A study of Mus musculus with 12 samples.

Results

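The neuregulins, the other EGF-like ligands and the ErbB receptors were examined in mouse hearts with altered Lemd2, a gene that encodes a protein of the inner nuclear membrane. The set held 10 genes, found by symbol among the 24062 gene symbols of the count table: the neuregulins Nrg1, Nrg2 and Nrg4, the ligands Hbegf, Areg, Ereg and Btc, and the receptors Erbb2, Erbb3 and Erbb4. Poly(A) RNA from whole hearts of 12 mice was sequenced in 4 groups of 3. Adult WT mice and adult KI/KI mice, homozygous for the Lemd2 c.T38>G knock-in, were 2 months old, and the edited allele also carried a silent change made to prevent recutting. P1 floxed and P1 cKO mice were taken on postnatal day 1. Both P1 groups carried loxP sites around exon 1 of Lemd2, and cKO mice also carried Cre driven by the α-MHC (Myh6) promoter, which directs expression to cardiomyocytes, while floxed controls lacked Cre. No group carried Cre without the floxed allele, so loss of Lemd2 and presence of Cre cannot be told apart in cKO hearts. The comparisons asked how these genes differed between KI/KI and WT hearts and between cKO and floxed hearts, and, as a description of the controls, between P1 floxed and adult WT hearts.

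EGF-like ligands are made as membrane proteins, and metalloproteases of the ADAM family release many of them from the cell surface. Neuregulins bind ERBB3 and ERBB4, amphiregulin binds EGFR, and HB-EGF, epiregulin and betacellulin bind EGFR and ERBB4. ERBB2 has no known ligand of its own and signals as the partner of another family member, while ERBB3 has little kinase activity. In the heart, neuregulin-1 comes largely from endocardial and endothelial cells and acts on ERBB2 and ERBB4 of cardiomyocytes, a circuit needed for trabeculation of the embryonic ventricle and for maintenance of the adult muscle.

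Areg, Ereg and Btc are neighbours. In the mm10 build (GRCm38, GENCODE M21), Ereg lies at chr5:91074622-91093646 on the plus strand, Areg at chr5:91139599-91148432 on the plus strand and Btc at chr5:91357261-91402994 on the minus strand. The starts of Areg and Btc lie 65.0 kb and 328.4 kb beyond that of Ereg. Nrg1 and Erbb4 are long genes, at chr8:31814551-32884029 and chr1:68032186-69108059 on the minus strands, and each spans over 1000 kb. Erbb2 lies at chr11:98412470-98437716 on the plus strand, Erbb3 at chr10:128567523-128589652 on the minus strand and Nrg4 at chr9:55220222-55326844 on the minus strand. All 10 are protein-coding genes, and counts were summed over each whole gene, so isoforms, which are many for Nrg1, were not separated. Exons of Nrg1 and Ereg overlap exons of the noncoding genes Gm26578 and Gm19610 on the opposite strand over 4.66% and 3.42% of their exonic bases, and those of Nrg4 overlap Fbxo22 over 6.06%. Because the strand setting of the counting was not given in the sources used here, reads in those stretches cannot be told apart.

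The RefSeq promoter table (GRCm38.p6) held 5 of the 10 genes, Areg, Btc, Erbb2, Erbb4 and Nrg4. The 250 bases before the transcription start are shown for the neighbours Areg, which differed between cKO and floxed hearts, and Btc, for which no difference was detected. Capitals mark matches to the letters of 4 motifs searched on both strands: the CRE (TGACGTCA), the AP-1 motif (TGANTCA), the TATA box (TATAAA) and the GC box (GGGCGG).
Areg, chr5:91139349-91139598, plus strand: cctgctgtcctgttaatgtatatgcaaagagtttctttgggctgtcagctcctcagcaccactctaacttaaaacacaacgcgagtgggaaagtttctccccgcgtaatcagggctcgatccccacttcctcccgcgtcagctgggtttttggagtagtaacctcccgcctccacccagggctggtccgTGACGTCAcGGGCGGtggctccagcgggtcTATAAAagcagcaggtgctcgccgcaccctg
Btc, chr5:91402995-91403244, minus strand: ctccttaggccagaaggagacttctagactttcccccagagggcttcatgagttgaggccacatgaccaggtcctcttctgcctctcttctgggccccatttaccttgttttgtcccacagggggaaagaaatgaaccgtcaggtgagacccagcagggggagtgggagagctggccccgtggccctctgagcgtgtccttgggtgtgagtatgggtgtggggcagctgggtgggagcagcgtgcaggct
The Areg window held a CRE starting at -61, a GC box at -52 and a TATA box at -31 from the start site, and no AP-1 motif. Of 32851 promoter windows of this length, 1.55% held the CRE, 32.7% the GC box, 12.4% the TATA box and 6.75% the AP-1 motif. The Btc window held none of the 4 motifs, nor did those of Erbb2, Erbb4 and Nrg4. These matches describe letters and not occupied sites.

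Library totals ranged from 37063669 to 44789753 counts, and levels are given as CPM, the counts of each library scaled to a common total with TMM normalization over the 12 libraries. A count of 3, taken as the floor, corresponded to 0.0599 to 0.0965 CPM per library. Lemd2 stood at 24.3 to 25.4 CPM in floxed and 6.59 to 13.1 CPM in cKO hearts, and at 32.0 to 34.8 CPM in WT and 24.8 to 25.6 CPM in KI/KI hearts. All 10 cardiomyocyte markers were detected in every group. The summed level of 12 lung and airway epithelium markers varied between libraries, from 2.96 to 438 CPM in floxed and 4.31 to 182 CPM in cKO hearts, and in adults it was 132 CPM in WT replicate 3, 43.4 CPM in KI/KI replicate 4 and at most 1.16 CPM in the other hearts. The library of cKO replicate 4 was low in Y-linked transcripts while the other 11 libraries were high. Genes were called where edgeR's quasi-likelihood test gave an adjusted p under 0.05 over all genes tested and the fold change was above 2.

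In P1 cKO hearts, 4 of the 7 ligand genes were called higher than in floxed hearts, Nrg1, Ereg, Areg and Hbegf, while no ligand or receptor of the 10 was called lower. Among all 15317 genes tested in this comparison, 2.77% were called higher and 1.7% lower. The estimated folds of the 4 genes lay between 2.57 and 8.66. All 10 genes passed the filter on low counts, Areg only through its level in cKO hearts.

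Nrg1 was measured at 21.6, 19.8 and 5.61 CPM in cKO replicates 4, 5 and 6. In floxed replicates 1, 2 and 3 it was at 1.13, 2.46 and 2.26 CPM. Every cKO heart was above every floxed heart, and replicate 6 was well below the other cKO hearts. The counts of replicate 6 also differed most within the cKO group. Chi-square per degree of freedom was 138 against replicate 4 and 81.7 against replicate 5, and 37.9 between replicates 4 and 5. The log2 fold change was 3.02 (SE 0.56, edgeR adjusted p = 0.0178), an 8.09-fold difference.

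Ereg, which encodes epiregulin, followed the same order of hearts. It was measured at 11.6, 9.23 and 1.70 CPM in cKO replicates 4, 5 and 6 and at 0.745, 1.04 and 0.832 CPM in the floxed hearts. The groups did not overlap, although cKO replicate 6 was only 1.95 times the floxed mean while the other cKO hearts were 13.3 and 10.6 times it. The log2 fold change was 3.12 (SE 0.68, edgeR adjusted p = 0.0268).

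Areg, which encodes amphiregulin, was scarce. It had 36, 31 and 37 counts in cKO hearts (0.719, 0.646 and 0.899 CPM) and 7, 7 and 5 counts in floxed hearts (0.158, 0.152 and 0.107 CPM). The groups were apart, and here cKO replicate 6 was the highest of the 3. The log2 fold change was 2.42 (SE 0.34, edgeR adjusted p = 0.00925). Areg passed the filter on low counts only through its cKO level, so this result is conditional on that level. With no filter its log2 fold change was again 2.42 (edgeR adjusted p = 0.00859).

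Hbegf, the gene of heparin-binding EGF-like growth factor, was the most abundant of the 10 members' ligand genes. It was measured at 39.0, 37.5 and 31.9 CPM in cKO hearts and at 13.8, 12.9 and 15.6 CPM in floxed hearts. The 3 cKO hearts were close together and each at least 2.26 times the floxed mean. The log2 fold change was 1.36 (SE 0.13, edgeR adjusted p = 0.00494), and its adjusted p equalled the smallest among all genes tested.

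**Figure D1:**
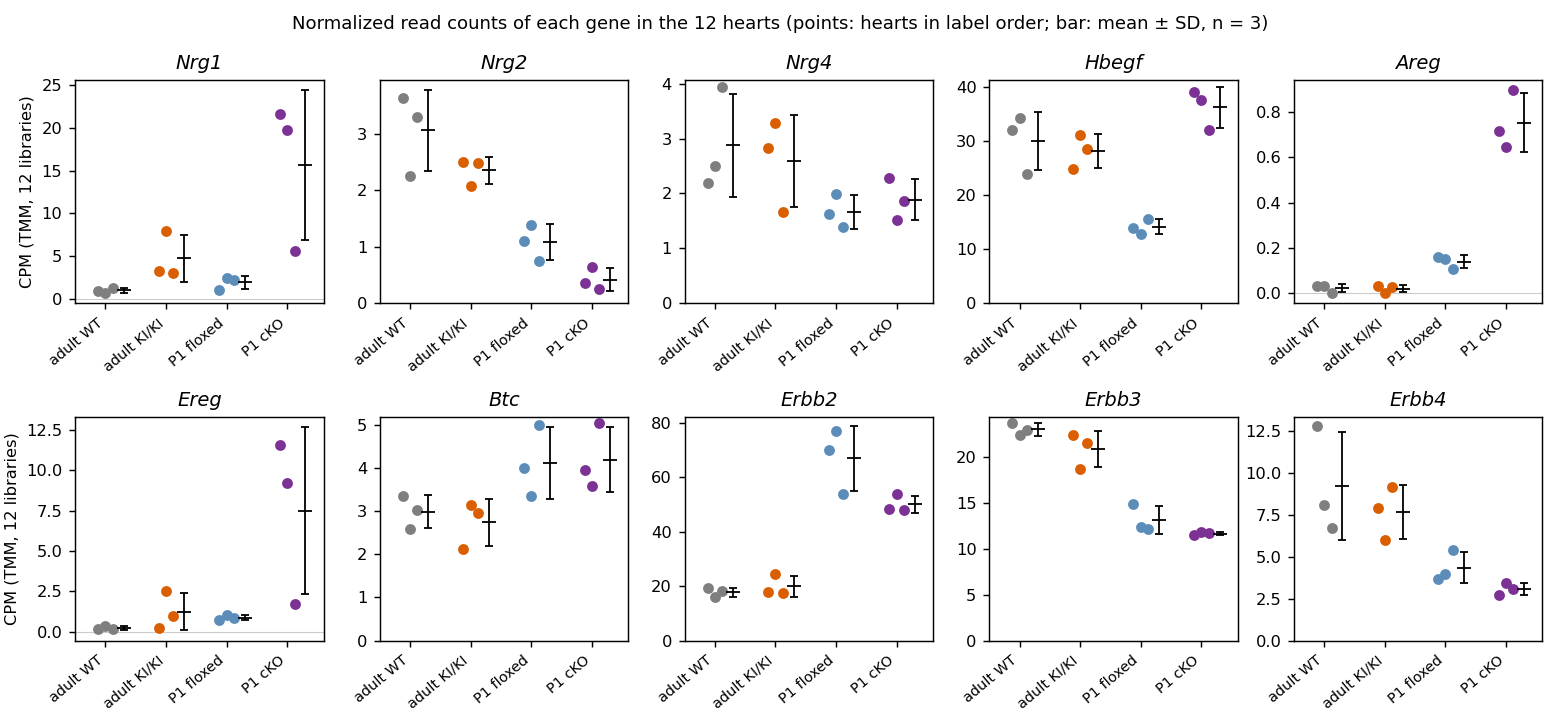
Normalized read counts (CPM, linear axes) of the 10 genes in the 12 hearts; points are hearts in label order and bars the mean ± SD of 3. In Nrg1 and Ereg the third cKO heart (replicate 6) sits far below the other cKO hearts, whereas in Hbegf the cKO hearts lie together at 31.9 to 39.0 CPM.

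These calls differed in how much they rested on single libraries. With each of the 6 libraries left out in turn, Hbegf kept an adjusted p under 0.05 in 6 of 6 fits and Areg in 5 of 6, losing it without floxed replicate 1 (adjusted p = 0.0608). Nrg1 kept it in 3 of 6 fits, losing it without floxed replicate 1, floxed replicate 2 or cKO replicate 5 (adjusted p = 0.0898, 0.0633 and 0.0668). Ereg kept it in 2 of 6, losing it without floxed replicate 1, 2 or 3 or cKO replicate 5 (adjusted p = 0.124, 0.087, 0.0755 and 0.0895), and it also lost it with the Y-linked level as a covariate (0.0564). The log2 fold changes stayed within 2.69 to 3.41 for Nrg1, 2.64 to 3.58 for Ereg, 2.25 to 2.52 for Areg and 1.28 to 1.44 for Hbegf.

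**Figure D2:**
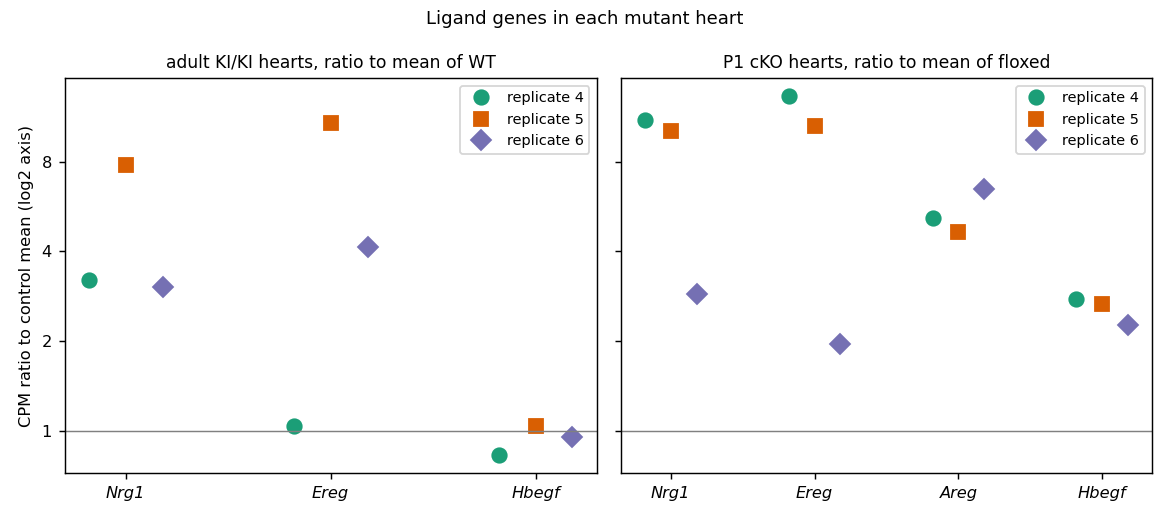
CPM of ligand genes in each mutant heart as a ratio to the mean of its controls (log2 axis, 1 = control mean); Areg is left out in adults, where it had 0 or 1 count per heart. In cKO replicate 6 Nrg1 and Ereg stood at 2.88 and 1.95 times the control mean against 10.1 to 13.3 times in the other cKO hearts, while Areg was highest in replicate 6.

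The remaining ligand genes were not called. Nrg2, a neuregulin best known from the nervous system, was at 0.359, 0.646 and 0.243 CPM in cKO hearts and at 1.11, 1.39 and 0.746 CPM in floxed hearts. The groups did not overlap, with cKO hearts lower, but the difference did not pass the test (log2 fold change -1.37, SE 0.44, edgeR adjusted p = 0.0771). DESeq2 gave an adjusted p of 0.0417 for it, and edgeR with all 12 libraries in one fit 0.0192. Nrg4, a neuregulin that binds ERBB4 and is known as a product of brown fat, ranged from 1.52 to 2.28 CPM in cKO and from 1.39 to 2.00 CPM in floxed hearts (log2 fold change 0.18, SE 0.26, adjusted p = 0.655). Btc, the betacellulin gene, ranged from 3.58 to 5.03 CPM and from 3.35 to 4.99 CPM (log2 fold change 0.025, SE 0.21, adjusted p = 0.944).

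The 3 receptor genes had lower estimates in cKO hearts, and none passed the test. Erbb2 was at 48.4, 53.8 and 48.0 CPM in cKO hearts and at 70.1, 77.2 and 53.8 CPM in floxed hearts, so floxed replicate 3 met the highest cKO heart (log2 fold change -0.42, SE 0.14, edgeR adjusted p = 0.086). Without floxed replicate 3 its adjusted p was 0.0255, at a log2 fold change of -0.56. That heart was also low in lung and airway epithelium markers, at 2.96 CPM against 261 and 438 CPM in the other floxed hearts. The fit without it thus set cKO hearts against floxed hearts high in those markers. Among cKO hearts the one highest in Erbb2 was the lowest in those markers (4.31 CPM). The part of lung tissue in the fit without floxed replicate 3 was not tested. Erbb4, the ligand-binding receptor of cardiomyocytes, was at 2.71, 3.42 and 3.09 CPM against 3.68, 3.93 and 5.39 CPM, with no overlap (log2 fold change -0.50, SE 0.20, adjusted p = 0.128). Erbb3 was at 11.5, 11.8 and 11.7 CPM against 14.9, 12.4 and 12.2 CPM, with no overlap either (log2 fold change -0.18, SE 0.12, adjusted p = 0.321). Of the 10 genes, 4 were higher and 3 lower with ranges apart, where 19.9% and 19.1% of all genes tested were. In whole hearts, fewer cells of a type and less RNA per cell cannot be told apart.

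**Figure D3:**
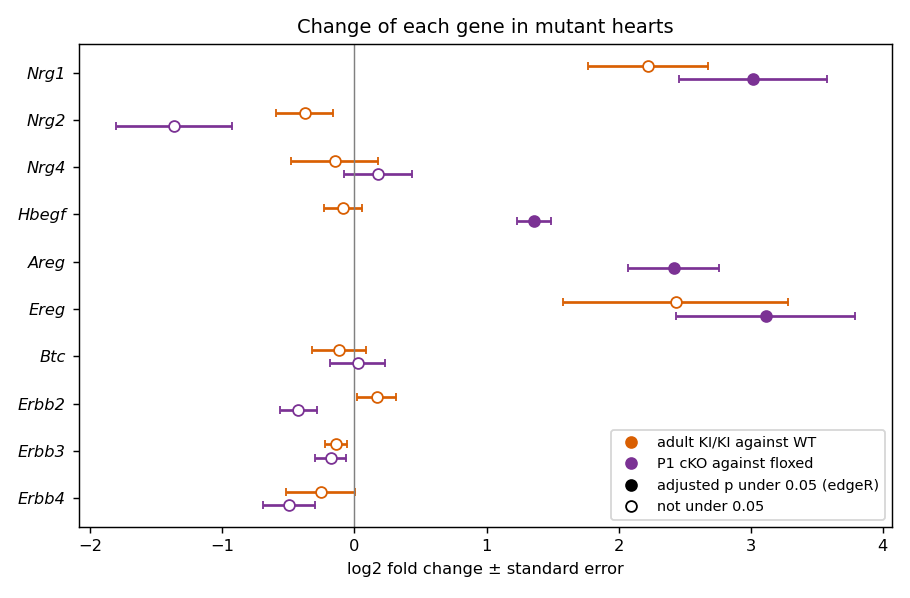
Log2 fold changes ± standard error in adult KI/KI against WT hearts and P1 cKO against floxed hearts; filled points have an edgeR adjusted p under 0.05. Filled points occur for Nrg1, Hbegf, Areg and Ereg in cKO hearts, and Hbegf is near 0 in KI/KI hearts.

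Marker genes of heart cell types were read beside these results, with 9.15% of all genes higher and 7.31% lower in cKO hearts at an adjusted p under 0.05. The summed level of 10 macrophage and leukocyte markers was 102 to 154 CPM in cKO and 74.9 to 80.8 CPM in floxed hearts, with 4 of the 9 tested at an adjusted p under 0.05, all higher. The 10 cardiomyocyte markers summed to 43347 to 47588 against 51550 to 59715 CPM, with 4 of 10 lower at that limit. The 10 endothelial markers summed to 1875 to 2036 against 1423 to 1554 CPM, with 2 of 10 higher, and the 4 endocardial markers to 389 to 684 against 381 to 439 CPM, with 1 of 4 higher. The 10 Schwann cell markers, a cell type that depends on ERBB3, summed to 22.5 to 34.0 against 25.3 to 59.2 CPM, with 2 of 9 lower and 1 higher. Fibroblast sums were 3533 to 4185 against 3024 to 3415 CPM with 2 of 8 higher, smooth muscle sums 1890 to 3161 against 1446 to 1842 CPM with 4 of 8 higher, and epicardial sums 30.1 to 109 against 55.8 to 99.6 CPM with 0 of 6 past the limit. In cKO replicates 4, 5 and 6 the endocardial sums were 684, 542 and 389 CPM, the order of Nrg1 and Ereg. Macrophage, Schwann cell and epicardial sums fell in that order too. Single markers did not all follow their sums. Npr3, Plvap and Cgnl1 had the endocardial order, but Nfatc1 was highest in replicate 5. The macrophage markers Cd68 and Emr1 and the epicardial marker Wt1 were highest in replicate 6. Endothelial and fibroblast sums were highest in replicate 6, and cardiomyocyte and smooth muscle sums in replicate 5. The part of the shifts between groups and between hearts in the ligand and receptor levels was not tested. With the lung and airway epithelium markers as a covariate, the same number of members, 4, was called.

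In the ligand cluster on chromosome 5, Ereg and Areg were called higher in cKO hearts, Areg having passed the filter only through its cKO level, and Epgn and Btc were not called. Differences in change between these genes were not tested. Epgn, the epigen gene 47.2 kb before Ereg, had a log2 fold change of 0.12 (SE 0.37, adjusted p = 0.834), and Btc of 0.025. Of 24 protein-coding genes whose start lies within 1000 kb of that of Ereg, 16 were tested and 3 were called higher. Among all genes tested, 2.77% were. The 3 include Ereg itself, on which the window was centred, and Areg, so the count does not describe the region apart from them. The third was Rassf6, named after its values were seen, which starts 434 kb before Ereg (log2 fold change 2.90, SE 0.54, adjusted p = 0.0179). Mthfd2l, 143.5 kb before Ereg and also named after its values were seen, was at 0.13 (SE 0.11, adjusted p = 0.422). Not every uncalled neighbour was near 0. Ppbp was at 1.48 (SE 0.51, adjusted p = 0.0925) and Cxcl1 at 1.37 (SE 0.51, adjusted p = 0.111). Ankrd17 was lower at under 2-fold (-0.39, SE 0.10, adjusted p = 0.0474). These 3 were likewise named after their values were seen.

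**Figure D4:**
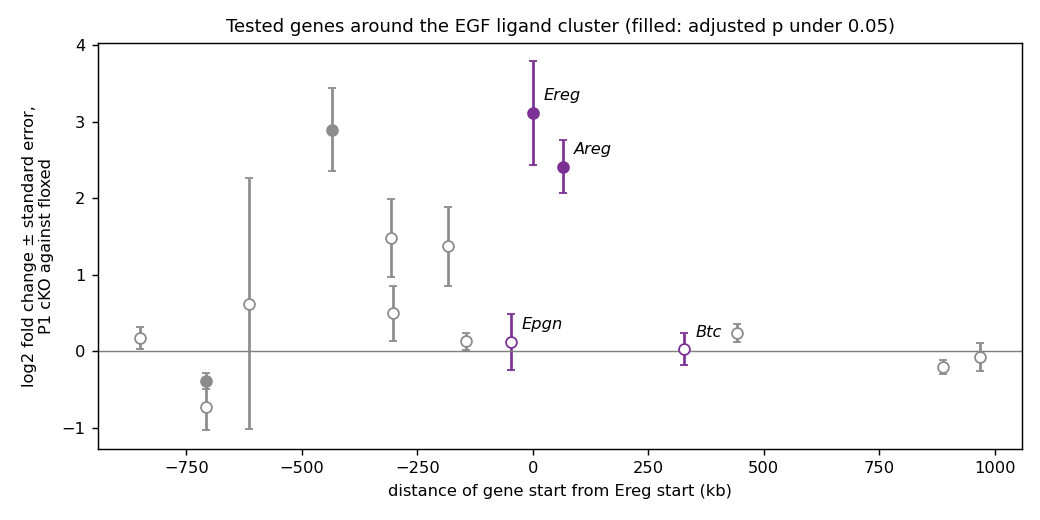
Log2 fold change ± standard error in P1 cKO against floxed hearts for the 16 tested genes around Ereg, by distance of the gene start from that of Ereg in kb; purple marks the EGF-like ligands and filled points an edgeR adjusted p under 0.05. Ereg and Areg stand at 3.12 and 2.42, Epgn and Btc near 0.

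In adult KI/KI hearts, none of the 9 tested members was called by edgeR. Nrg1 and Ereg were higher at an unadjusted p under 0.05, and none was lower at that limit. Ereg passed the filter on low counts only through its KI/KI level, so its place here is conditional on that level. No gene of 14592 was called in this comparison (0%), with 8.77% of genes higher and 7.2% lower at an unadjusted p under 0.05. The smallest adjusted p of any gene was 0.0743.

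Nrg1 was measured at 3.28, 7.96 and 3.09 CPM in KI/KI replicates 4, 5 and 6 and at 0.997, 0.733 and 1.33 CPM in WT replicates 1, 2 and 3. Each KI/KI heart was at least 3.03 times the WT mean and replicate 5 was the highest. The log2 fold change was 2.23 (SE 0.45, edgeR adjusted p = 0.191), and 1.63 without replicate 5. DESeq2 gave an adjusted p of 0.000212 and called Nrg1 alone of the members. Nrg1 was the 1 member with KI/KI hearts higher and ranges apart, where 11.4% of all genes tested were higher and 10.4% lower in that way.

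Ereg differed strongly among KI/KI hearts. It had 8, 103 and 34 counts in replicates 4, 5 and 6 (0.238, 2.49 and 0.956 CPM) and 5, 12 and 6 counts in WT hearts (0.161, 0.366 and 0.163 CPM). Replicate 4 lay within the WT range and replicate 5 was again the highest. The log2 fold change was 2.43 (SE 0.85, edgeR adjusted p = 0.272), and 1.38 without replicate 5. With no filter it was 2.42 (edgeR adjusted p = 0.337). Areg had 0 or 1 count in each of the 6 adult hearts, under the floor of 3, and no fold is given.

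Hbegf was at 24.8, 31.1 and 28.5 CPM in KI/KI hearts and at 31.9, 34.1 and 23.9 CPM in WT hearts, ranges that overlapped (log2 fold change -0.083, SE 0.14, edgeR adjusted p = 0.794). The log2 fold changes of Nrg2, Nrg4 and Btc were -0.38 (SE 0.22), -0.15 (SE 0.33) and -0.12 (SE 0.20). Those of Erbb2, Erbb3 and Erbb4 were 0.17 (SE 0.15), -0.14 (SE 0.082) and -0.26 (SE 0.26). The adjusted p of these 6 genes lay between 0.414 and 0.842. The macrophage and leukocyte markers summed to 221 to 240 CPM in KI/KI and 144 to 208 CPM in WT hearts and the cardiomyocyte markers to 71394 to 94173 against 92812 to 106024 CPM, with no marker past the test. Endocardial markers summed to 299 to 373 against 260 to 293 CPM and fibroblast markers to 4009 to 4995 against 3451 to 4069 CPM. Endothelial sums were 1670 to 1957 against 1564 to 1760 CPM, again with no marker past the test. Replicate 5, the highest in Nrg1 and Ereg, had the lowest cardiomyocyte and Schwann cell sums of the KI/KI hearts. Its macrophage, endothelial, endocardial, fibroblast, smooth muscle and epicardial sums were the highest. Single markers did not all follow, as the macrophage marker Csf1r and the smooth muscle marker Myh11 were highest in replicate 4. The part of these shifts was not tested.

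Whether the change differed between the models was tested in a fit of all 12 libraries, where model, age, allele and Cre cannot be told apart. Of the 10 members, Hbegf alone passed this test, with a difference of 1.45 on the log2 scale (SE 0.20, edgeR adjusted p = 0.0114), against 2.51% of 15729 genes. The estimate for Nrg1 was 0.79 (SE 0.77, adjusted p = 0.606) and that for Ereg 0.68 (SE 1.20, adjusted p = 0.793), so no difference between the models was detectable at this spread. For Areg no difference is given, since each adult heart had 0 or 1 count.

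The control hearts themselves differed in most members. Of 9 members tested between P1 floxed and adult WT hearts, Ereg and Erbb2 were called higher at P1 and Nrg2, Hbegf and Erbb4 lower, where 13.9% of 15183 genes were called higher and 13.3% lower. Ereg passed the filter on low counts only through floxed hearts. Age, floxed allele and experiment cannot be told apart here, and the comparison shares its control hearts with the other ones.

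Erbb2 was at 53.8 to 77.2 CPM in floxed and 16.0 to 19.3 CPM in WT hearts (log2 fold change 1.92, SE 0.14, edgeR adjusted p = 1.72e-05). Erbb4 went the other way, at 3.68 to 5.39 against 6.72 to 12.8 CPM (log2 fold change -1.07, SE 0.26, adjusted p = 0.00766). Erbb3 was lower without reaching the 2-fold limit, at 12.2 to 14.9 against 22.3 to 23.7 CPM (log2 fold change -0.80, SE 0.10, adjusted p = 0.000274). The ranges of all 3 receptors were apart, and the share of all genes with ranges apart is not given for this comparison. The cardiomyocyte markers were lower at P1 too, with 9 of 10 at an adjusted p under 0.05, where 31.4% of all genes were lower and 33.3% higher, and their part was not tested.

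Among ligands, Hbegf was 2.11-fold lower in floxed than in WT hearts (log2 fold change -1.08, SE 0.14, edgeR adjusted p = 0.00031). The cKO hearts, at a mean of 36.2 CPM ± 3.74 (SD, n = 3), thus overlapped the adult WT hearts at 30.0 CPM ± 5.40 (SD, n = 3). Nrg2 had a log2 fold change of -1.49 (SE 0.30, adjusted p = 0.00295) and Nrg4 of -0.78 (SE 0.29, adjusted p = 0.0416). Ereg was higher at P1 (1.92, SE 0.40, adjusted p = 0.00352), although with all 12 libraries in one fit its adjusted p was 0.0852. It had 33, 48 and 39 counts in floxed and 5, 12 and 6 in WT hearts, and passed the filter only through floxed hearts. With no filter its edgeR adjusted p was 0.00427. Nrg1 (0.93, SE 0.37, adjusted p = 0.0559) and Btc (0.47, SE 0.20, adjusted p = 0.0766) did not pass the test. Nrg1 passed without WT replicate 3 (adjusted p = 0.044) or floxed replicate 1 (0.0189), and Btc without floxed replicate 2 (0.0363). Nrg4 lost its adjusted p under 0.05 without WT replicate 2 or 3 or floxed replicate 1 or 3 (0.0511, 0.13, 0.106 and 0.102).

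To set genes beside each other, CPM were divided by the kilobases of GENCODE exon. The 4 receptor genes of the family, Egfr included, summed to 8.24 to 10.2 CPM per kb in WT and 13.5 to 18.4 CPM per kb in floxed hearts. Of this sum, Erbb2 made up 37.5% ± 1.29 (SD, n = 3) in WT hearts and 78.6% ± 2.16 in floxed hearts. Erbb3 made up 42.2% ± 3.15 and 13.6% ± 2.05, and Erbb4 8.06% ± 2.06 and 2.24% ± 0.862. Per length, Erbb2 was 3.57 to 6.40 times Erbb4 in WT hearts and 23.6 to 46.6 times in floxed hearts. In cKO hearts the Erbb2 share was 76.1% ± 1.42 and in KI/KI hearts 41.6% ± 5.80, and both overlapped the range of their controls.

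**Figure D5:**
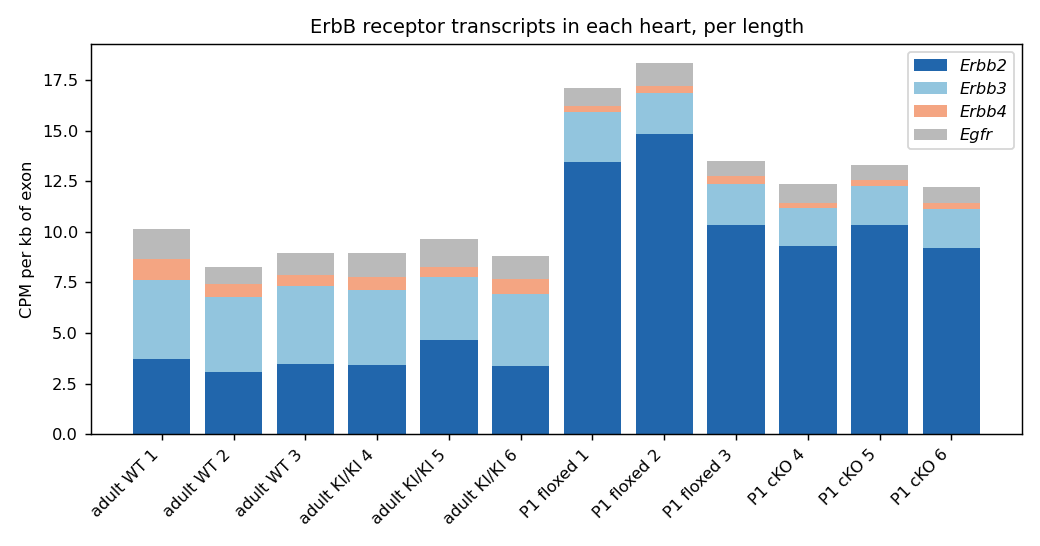
ErbB receptor transcripts in each heart as stacked CPM per kb of GENCODE exon (linear axis from 0). Erbb2 makes up 76.3 to 80.7% of the sum in floxed hearts and 36.4 to 38.9% in WT hearts.

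Among 10 ligand genes of the family, Hbegf held the largest mean share per length in each group, 59.5% in WT (range 51.6 to 65.2), 57.1% in KI/KI (54.0 to 58.9), 43.5% in floxed (41.1 to 46.5) and 50.9% in cKO hearts (47.1 to 56.7). The ligand sum was 6.47 to 6.96 CPM per kb in floxed and 11.6 to 17.1 CPM per kb in cKO hearts. Ereg made up 3.17% ± 0.642 of the sum in floxed and 11.3% ± 6.85 in cKO hearts (SD, n = 3), and Nrg1 2.81% ± 1.05 and 9.62% ± 4.30. In WT hearts Nrg2, at 9.47% ± 2.45, exceeded Nrg1 at 0.966% ± 0.351.

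By group mean, Nrg1 and Ereg followed the same order, cKO, KI/KI, floxed, WT, and the Nrg1 ranges were apart only between KI/KI and floxed hearts among neighbours in that order. Ereg was apart only between floxed and WT hearts. Nrg2, Erbb3 and Erbb4 shared the order WT, KI/KI, floxed, cKO, with the P1 groups apart from the adult groups and from each other. Nrg4 followed WT, KI/KI, cKO, floxed with every pair of neighbours overlapping. Erbb2 followed floxed, cKO, KI/KI, WT, apart only between cKO and KI/KI hearts.

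Genes whose pattern over the 12 libraries was most like that of a called member were found by the root mean square difference of centred log2 CPM among 15741 genes. For Nrg1 these were Gdf6 (0.44), Plcxd2 (0.58) and Gpr39 (0.59). For Ereg they were Sp5 (0.55), Gdf6 (0.61) and Tuft1 (0.66). Sp5 was scarce, with a mean of 0.0209 CPM in WT hearts, under the floor, and 0.152 in KI/KI, 0.140 in floxed and 0.898 CPM in cKO hearts. Hbegf had closer matches in Fosl2 (0.20), Nuak1 (0.20) and Btg2 (0.21). For Areg, under the floor in the 6 adult libraries, none are given. Gdf6, which encodes a BMP-family growth factor, was at a mean of 1.01 CPM in WT, 3.55 in KI/KI, 2.26 in floxed and 21.9 in cKO hearts. Fosl2, which encodes an AP-1 subunit, was at 52.3, 47.1, 30.3 and 67.0 CPM in the same order.

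Other EGF family genes did not move as 1 group. Of the 5 tested in cKO hearts, Egf was called lower and Tgfa passed the adjusted p at under 2-fold. Egf was at 2.10, 1.96 and 2.60 CPM in cKO and 6.36, 6.48 and 5.59 CPM in floxed hearts (log2 fold change -1.47, SE 0.17, edgeR adjusted p = 0.00671), while the KI/KI estimate was -0.30 (SE 0.12, adjusted p = 0.299). Tgfa, which encodes the EGFR ligand TGF-alpha, was at 11.9, 12.2 and 9.28 CPM against 7.74, 6.11 and 6.18 CPM (0.74, SE 0.17, adjusted p = 0.0326). Without passing the test, Egfr was at -0.15 (SE 0.21) on the log2 scale, Epgn at 0.12, and Muc4, which encodes a membrane mucin that binds ERBB2 and is made by airway epithelium, at -2.56 (SE 1.24). Muc4 ranged from 0.192 to 4.54 CPM among floxed hearts, being high in the libraries high in lung markers. Nrg3 had 0 to 3 counts per heart and was not tested.

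Among 14 ligand-shedding genes tested in cKO hearts, 2 passed the adjusted p, both higher. Of all genes, 9.15% were higher and 7.31% lower at that limit. Adam9, a metalloprotease that can release HB-EGF, was called (log2 fold change 1.58, SE 0.18, edgeR adjusted p = 0.00671), and the list's median was 0.24 against -0.0048 over all genes. Of 39 receptor adaptors and kinases, 1 was higher and 3 lower at that limit and 0 were called. Of 18 negative regulators and trafficking genes, 2 were higher and 2 lower and 0 were called. Of 4 genes of the HSP90 system, which folds ERBB2, 2 were higher, with Hsp90aa1 called (1.19, SE 0.10, adjusted p = 0.00494). The medians of these 3 lists were 0.037, 0.039 and 0.35.

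In KI/KI hearts none of the genes of these 5 lists passed the adjusted p. Between floxed and WT hearts, 4 of 14 shedding genes tested were called, 3 higher and 1 lower, beside 13.9% and 13.3% of all genes, so their share was near that of all genes. These were Adam12 (log2 fold change 3.17, SE 0.31, edgeR adjusted p = 7.19e-05), Adam19 (2.02, SE 0.23, 0.000227) and Rhbdl2 higher and Timp3, an inhibitor of ADAM proteases, lower (-1.22, SE 0.10, 2.75e-05). Rhbdl2, named after its values were seen, reached 0.248, 0.282 and 0.490 CPM in the 3 floxed hearts but stayed under the floor in every WT heart, so it passed the filter only through floxed hearts and no fold is given. At an adjusted p under 0.05, 33.3% of all genes were higher and 31.4% lower at P1. Of 39 adaptor and kinase list genes, 12 were higher and 12 lower at that limit. The 3 called past the 2-fold limit were all lower: Pik3r1, a regulatory subunit of PI3-kinase (-1.91, SE 0.20, adjusted p = 0.000104), the transcription factor gene Stat5a (-1.18, SE 0.14, 0.000192) and Ptpn11, which encodes the phosphatase SHP2 (-1.01, SE 0.11, 9.91e-05). Of 18 negative regulators and trafficking genes, 6 were higher and 7 lower at an adjusted p under 0.05, beside those 33.3% and 31.4%. The 1 called was lower: Errfi1, an inhibitor of EGFR and ERBB2 kinase activity (-1.02, SE 0.36, adjusted p = 0.0436).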

How the data were processed

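Whole-heart RNA was measured in 4 groups of 3 mice. For the deposited counts, the authors made poly(A) libraries, sequenced single reads, removed adapters (Trim Galore), mapped to the mm10 genome (STAR 2.7.2b), sorted (SAMtools 1.9) and used HTSeq to count raw reads for each gene, with no normalization. The strand setting and HTSeq version are not given in the sources used here.

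The edgeR package (4.0.16, under R 4.3.3) was fitted to the 6 libraries of a comparison with TMM factors, filterByExpr and the robust quasi-likelihood test, and p-values were adjusted by Benjamini-Hochberg over all genes tested. The difference between the models used all 12 libraries and was called at an adjusted p under 0.05 with no fold limit. Standard errors came from the log2 fold change and the F statistic. The procedure was also run on simulated counts, in which no outlying heart was modelled. The outcome is not given here, and no call rests on it. Locations came from GENCODE M21. Alternatives were DESeq2 1.42.0, RLE size factors, total counts, other filters (none, or at least 10 counts in every library), 1 fit of all libraries, non-robust dispersion, covariates, other call rules, a replicate block and each library left out.

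The members, gene lists and tests were chosen with earlier results of these data known. Named were all members, Lemd2, the other EGF family genes, up to 3 called genes per pathway list and comparison, and the 3 genes nearest to each called member except Areg, by centred log2 CPM with a prior count of 2. No replicates held identical counts (chi-square per degree of freedom 19.3 to 138 over 12 pairs). Each library was 1 mouse per the labels. The floor of 3 counts covers counting error only.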

Additional observations from a re-analysis of the deposited data

Results flagged for a closer look

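The change of Hbegf differed between the models by a test of the difference itself: its log2 fold change in cKO hearts exceeded that in KI/KI hearts by 1.45 (SE 0.20, edgeR adjusted p = 0.0114), with all 3 cKO hearts above all 3 floxed hearts and the KI/KI and WT hearts overlapping. The same test gave a difference of 1.48 for Adam9 (SE 0.23, adjusted p = 0.0144) and of 0.71 for Hsp90aa1 (SE 0.14, adjusted p = 0.031), and of 0.60 for Rhbdf1 (SE 0.13, adjusted p = 0.0403). For Pik3r3 it was -0.62 (SE 0.14, adjusted p = 0.0471). For Egf the difference was -1.16 (SE 0.19, adjusted p = 0.0202), with lower estimates in cKO hearts. Groups of 3 were not tested for a heart far from the others.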

How the results depend on the processing

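DESeq2 called 1 member, Nrg1, in KI/KI hearts, where edgeR called 0. With 1 library left out, the members called numbered 1 to 4 in cKO hearts (4 with all libraries; 1 without floxed replicate 1, 2 without floxed replicate 2 or cKO replicate 5), 4 to 6 between floxed and WT hearts (5 with all), 0 in KI/KI hearts and 1 for the difference between the models, Hbegf. Small estimates changed sign: in cKO hearts Nrg4 to -0.025 with the Y-linked covariate and Btc to -0.026 with the lung marker covariate. Leaving out 1 library, the log2 fold change in KI/KI hearts ranged from -0.43 to 0.049 for Erbb4, -0.22 to 0.017 for Hbegf (0.00067 without KI/KI replicate 4), -0.37 to 0.16 for Nrg4 (0.088 without KI/KI replicate 6), -0.23 to 0.036 for Btc and -0.0048 to 0.25 for Erbb2, in cKO hearts from -0.12 to 0.18 for Btc (-0.11 without floxed replicate 2, -0.00075 without floxed replicate 1), and for Erbb3 the difference ranged from -0.10 to 0.066 (0.020 without KI/KI replicate 4). Of 260 other member estimates, 250 kept their direction and side of the limit, as did 260 of the 288 with 1 library left out. The cause was not tested.

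Counts over all genes moved more. In KI/KI hearts 0 genes were called, against 157 by DESeq2, 16 with all libraries in one fit, 1 with no filter or with the Y-linked covariate, and 0 to 34 with 1 library left out. In cKO hearts 686 were called, 2520 with no fold limit and 83 to 933 with 1 library left out. Between floxed and WT hearts 4123 were called and 9826 with no fold limit. For the difference, 395 became 1323 by DESeq2, 159 with a 2-fold limit and 50 to 935 with 1 library left out.

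Floxed and WT hearts share replicate numbers 1 to 3, but same-numbered hearts did not deviate together (correlations -0.25, -0.32 and -0.56), so the numbers do not pair them. With the replicate block, 5 members were called, as without it, while Nrg4 had an adjusted p of 0.0944. KI/KI and WT hearts share no numbers, nor do cKO and floxed hearts, so no paired fit was made for them. Totals alone in place of TMM moved 7 of 80 levels by over 1 SD. Depth limits Areg in adults and Nrg3, both at 0 to 3 counts.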
